A study of Sus scrofa with 9 samples.

Results

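Transcripts of 10 named genes of the inflammasome, pyroptosis and necroptosis were followed across 9 pig hearts donated after circulatory death: NLRP3, PYCARD, CASP1, GSDMD, NLRC4, AIM2, RIPK1, RIPK3, MLKL and CASP8. They were taken by gene symbol from a table of 25149 genes, in which 12006 genes carry no symbol. Of the 10 genes, 8 were listed and 7 of these reached 1 TPM in at least 3 of the 9 hearts, the filter that left 11782 genes for testing. TPM, the unit of all levels here, is a transcript level scaled for gene length and for the total of each heart. PYCARD and AIM2 were not found by symbol and were not analysed here.

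The hearts fell into 3 groups of 3, each from a separate pig. In Group 2, NRP+SCS 2h (pigs 24, 25 and 29), normothermic regional perfusion (NRP) restarted the circulation inside the donor after death, and the heart was then kept in static cold storage (SCS) for 2 h. In Group 1, NRP+HOPE 24h (pigs 27, 28 and 30), the donor also received NRP, and the heart was kept for 24 h on hypothermic oxygenated perfusion (HOPE), a cold machine perfusion. In Group 3, No NRP+HOPE 2h (pigs 31, 33 and 34), the heart was taken directly, without NRP, and had 2 h of HOPE. Every heart was then perfused warm with donor blood on a bench-top circuit for 2 h, after which the apex was biopsied, and no heart without ischemia or warm reperfusion was among the 9. Method and duration of storage therefore change together between the first pair of groups, and NRP and the method of storage change together between Group 2 and Group 3, so that their parts cannot be told apart.

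Inflammasomes are protein platforms that a sensor such as NLRP3 or NLRC4 assembles with the adaptor PYCARD when it meets danger signals or microbial products. They activate the protease caspase-1 (CASP1), which matures IL-1β and IL-18 and cuts gasdermin D (GSDMD), whose freed part forms membrane pores and ends the cell by pyroptosis. Necroptosis runs from death receptors through the kinases RIPK1 and RIPK3 to the pore-forming pseudokinase MLKL, and caspase-8 (CASP8) holds it back by cutting RIPK1 and RIPK3. These steps are switched by cleavage, assembly and phosphorylation of proteins, which transcript levels do not show.

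The depth of the libraries is unknown, since only TPM were used. The mitochondrially encoded share of TPM, over 13 genes, ran from 38.2% in pig 30 (NRP+HOPE 24h) to 55.3% in pig 27 of the same group. The labels give cardiomyocytes as the cell type, and the 4 cardiomyocyte markers listed summed to 17841 to 32031 TPM per heart, but 5 fibroblast markers (669 to 1150 TPM) and 5 endothelial markers (177 to 410 TPM) were also found in every heart. The values thus describe a whole biopsy, in which fewer cells of a type and less RNA per cell cannot be told apart.

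GSDMD was the most abundant of the 7 tested transcripts and the inflammasome genes CASP1 and NLRP3 were the scarcest. Over the 9 hearts GSDMD stood at 95.8 ± 35.8 TPM (mean ± SD, n = 9), higher than 94.1% of the tested genes by mean level. RIPK1 followed at 53.8 ± 14.4 TPM, RIPK3 at 19.2 ± 8.31 TPM, MLKL at 12.5 ± 6.51 TPM and CASP8 at 6.32 ± 1.75 TPM. CASP1 stood at 2.34 ± 3.32 TPM and NLRP3 at 1.07 ± 0.591 TPM, higher than 22.3% and 6.03% of the tested genes. GSDMD was above RIPK1, and RIPK1 above RIPK3, in 9 of 9 hearts. RIPK3 and MLKL, MLKL and CASP8, and CASP1 and NLRP3 were neighbours whose mean levels differed by less than the larger of their SDs. In the plot of levels by heart, RIPK1 varied least, 1.94-fold between its lowest and highest heart, and CASP1 most, 44.1-fold.

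**Figure D1:**
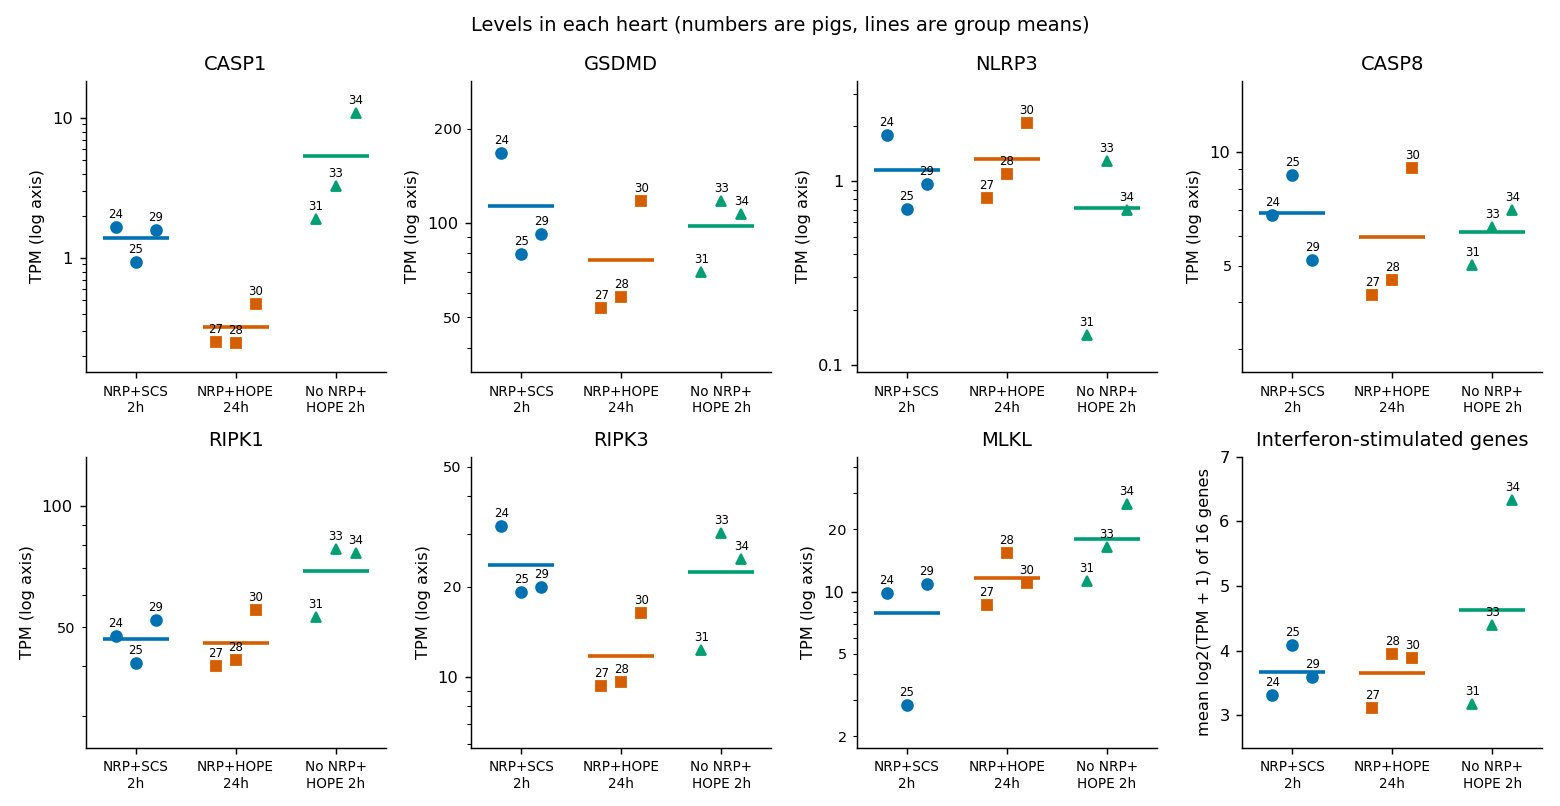
TPM of the 7 tested genes in each of the 9 hearts (log axes, points labelled by pig, horizontal lines for the mean of the 3 hearts of a group), with the mean log2(TPM + 1) of 16 interferon-stimulated genes in the last panel. CASP1 separates all 3 groups, and on average RIPK3 is lowest in NRP+HOPE 24h and MLKL and RIPK1 are highest in No NRP+HOPE 2h.

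Between Group 1 and Group 2, which sets 24 h of cold perfusion against 2 h of static storage after NRP, CASP1 and RIPK3 were lower in every NRP+HOPE 24h heart than in every NRP+SCS 2h heart. No member was called, that is, none combined an adjusted p under 0.05 with a log2 fold change beyond 1 in size, a rule that 0.0255% of the tested genes met. RIPK3 alone had an unadjusted p under 0.05, as did 4.97% of the tested genes. The 2 of 7 members without overlap stand beside 9.82% of the tested genes. The median log2 fold change was -0.23 over the 7 members and -0.12 over all tested genes.

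Between Group 3 and Group 2, the comparison made for the contribution of NRP, CASP1, MLKL and RIPK1 were higher in every No NRP+HOPE 2h heart than in every NRP+SCS 2h heart. Again 0 of 7 members were called, beside 0.0509% of the tested genes. CASP1 and MLKL had an unadjusted p under 0.05, as did 7.22% of the tested genes. The 3 members without overlap stand beside 14.7% of the tested genes. The other 4 members had log2 fold changes from -0.35 to -0.13, and the median of all tested genes was -0.07.

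Both further comparisons share hearts with these and were not primary ones of the study. Group 1 and Group 3 differ in both NRP and the duration of storage. The comparison with both NRP groups mixes NRP with the method and duration of storage, so that these parts cannot be told apart. Group 1 against Group 3 again had 0 members called, beside 0.0509% of the tested genes. CASP1 and RIPK3 had an unadjusted p under 0.05 there, beside 6.01% of the tested genes, and CASP1 alone did not overlap, beside 7.48%. No NRP+HOPE 2h against the 6 hearts of both NRP groups also had 0 members called, beside 0.0509%. CASP1, RIPK1 and MLKL had an unadjusted p under 0.05, beside 6.92% of the tested genes, and CASP1 alone did not overlap, beside 2.35%.

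**Figure D2:**
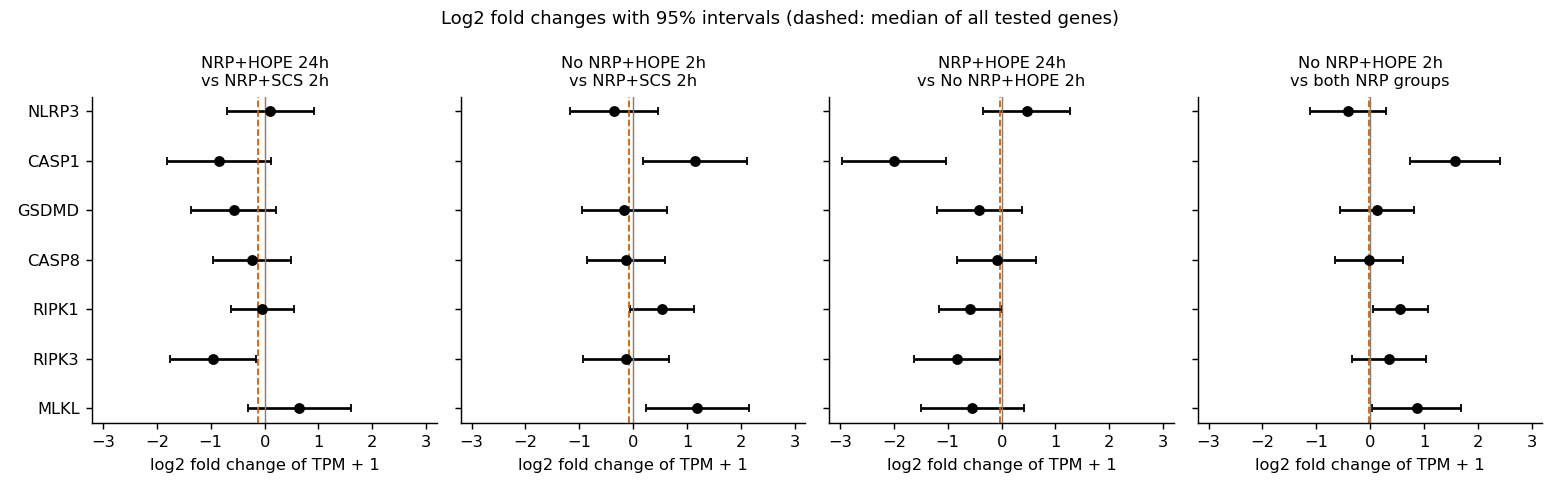
Log2 fold changes of TPM + 1 (horizontal axes) of the 7 tested genes in 4 comparisons, first group minus second, with 95% intervals from limma and a dashed line at the median of all tested genes. The CASP1 interval of -2.96 to -1.04 lies farthest from 0, in the third panel (Group 1 against Group 3).

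Of the sensors, NLRP3, which answers to potassium loss, crystals and mitochondrial damage, lay near 1 TPM and its groups overlapped. It read 1.80, 0.705 and 0.962 TPM in NRP+SCS 2h (pigs 24, 25 and 29), 0.811, 1.10 and 2.08 TPM in NRP+HOPE 24h (pigs 27, 28 and 30), and 0.146, 1.30 and 0.697 TPM in No NRP+HOPE 2h (pigs 31, 33 and 34). Pigs 31 and 34 were below every NRP+SCS 2h heart, pig 34 narrowly so, while pig 33 was above 2 of them. NLRP3 passed the filter through 4 hearts only. Its log2 fold change was 0.11 (95% interval -0.70 to 0.92) for Group 1 against Group 2 and -0.35 (-1.16 to 0.45) for Group 3 against Group 2. The second of these rests on levels near the pseudocount and was -0.85 with a pseudocount of 0.1, -0.03 with array weights, and from -0.60 without pig 33 to -0.09 without pig 31, with the same sign throughout. NLRC4, the sensor adaptor for bacterial flagellin and secretion systems, was listed at 0 in all 9 hearts. So were 8003 genes of the table, among them 2166 (16.5%) of those with a symbol, including MYH11, the myosin of smooth muscle, so that a listed 0 may not be a measured absence.

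CASP1, the inflammasome protease, was the one member whose 3 groups did not overlap at all. It was listed at 0.251, 0.245 and 0.467 TPM in NRP+HOPE 24h (pigs 27, 28 and 30), at 1.67, 0.934 and 1.58 TPM in NRP+SCS 2h (pigs 24, 25 and 29), and at 1.90, 3.25 and 10.8 TPM in No NRP+HOPE 2h (pigs 31, 33 and 34). The group means were 0.321 ± 0.126, 1.39 ± 0.399 and 5.32 ± 4.80 TPM (SD, n = 3 each), and pig 34 carried most of the last mean. Of the tested genes, 41 (0.348%) had 3 groups without overlap, a description made after the CASP1 values were seen. CASP1 reached 1 TPM in 5 hearts, all 3 of No NRP+HOPE 2h and pigs 24 and 29, so that it passed the filter only through the group where it was high.

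The log2 fold change of CASP1 between Group 1 and Group 3 was -2.0 (SE 0.45, 95% interval -2.96 to -1.04), with an unadjusted limma p of 0.000572 and an adjusted p of 0.248. Against NRP+SCS 2h it was 1.15 (SE 0.45) in No NRP+HOPE 2h, with an adjusted p of 0.600, and -0.85 (SE 0.45) in NRP+HOPE 24h, with an adjusted p of 0.993. Between No NRP+HOPE 2h and both NRP groups it was 1.57 (SE 0.39), with an adjusted p of 0.254. Since the filter took CASP1 in through its high group, these p are not independent of that group, and without the filter the adjusted p were 0.496, 0.748, 0.966 and 0.556 in the same order. These folds rest on levels near the pseudocount of 1 TPM. With a pseudocount of 0.1 they became -3.35 between Group 1 and Group 3, -1.83 between Group 1 and Group 2, and 2.44 between No NRP+HOPE 2h and both NRP groups, and no CASP1 value passed the adjusted threshold under any alternative. Without pig 34 the log2 fold change of Group 3 against Group 2 was 0.57 and its unadjusted p 0.151, and without pig 25 the unadjusted p was 0.0719. Against both NRP groups the log2 fold change was 0.99 without pig 34, with an unadjusted p of 0.0102. CASP1 kept No NRP+HOPE 2h above NRP+SCS 2h without overlap in all 20 alternatives run for that pair, and above both NRP groups in all 19 run for them.

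CASP1 and NLRP3 are transcribed mainly in white blood cells. Summed over 6 listed markers of macrophages and monocytes, none of them at 0 throughout, levels were 82.4 to 192 TPM in NRP+SCS 2h, 64.3 to 159 TPM in NRP+HOPE 24h and 107 to 239 TPM in No NRP+HOPE 2h. The 6 listed lymphocyte markers summed to 7.98 to 17.1, 6.38 to 25.4 and 10.2 to 26.5 TPM in the same order. The 5 listed neutrophil markers, of which CSF3R and MPO were at 0 in every heart, summed to 2.52 to 15.0, 1.39 to 5.69 and 1.06 to 1.98 TPM. The macrophage and lymphocyte sums overlapped between all groups. The neutrophil sum had its lowest median in No NRP+HOPE 2h, where CASP1 was highest. It was below every NRP+SCS 2h heart there but overlapped NRP+HOPE 24h. Summed markers of other cells did separate No NRP+HOPE 2h from NRP+SCS 2h, in the direction of CASP1, RIPK1 and MLKL. The 5 listed fibroblast markers summed to 1020 to 1150 TPM in the former and 669 to 982 TPM in the latter, and to 763 to 1116 TPM in NRP+HOPE 24h. The 2 listed erythroid and platelet markers summed to 222 to 372, 71.4 to 133 and 73.9 to 425 TPM in the same order, and no fibroblast, erythroid or platelet marker listed was at 0 throughout. The 5 listed markers of mural cells, of which MYH11 was at 0 in every heart, summed to 360 to 429 TPM in No NRP+HOPE 2h and 190 to 311 TPM in NRP+HOPE 24h, without overlap and in the direction of CASP1, and to 261 to 383 TPM in NRP+SCS 2h. By mean log2(TPM + 1) the fibroblast markers overlapped, at 6.29 to 6.44 in No NRP+HOPE 2h and 5.97 to 6.38 in NRP+SCS 2h. The mural markers overlapped by that measure too, at 4.07 to 4.22 in No NRP+HOPE 2h and 3.31 to 4.23 in NRP+HOPE 24h. The erythroid and platelet markers stayed apart, at 4.69 to 5.54 in No NRP+HOPE 2h and 3.42 to 4.06 in NRP+SCS 2h. The part of these cells in the values of the members was not tested.

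GSDMD, the pore former, did not follow CASP1. It read 167, 79.9 and 92.4 TPM in NRP+SCS 2h, 53.6, 58.2 and 117 TPM in NRP+HOPE 24h, and 69.9, 118 and 107 TPM in No NRP+HOPE 2h. All groups overlapped, with pig 24 the highest of all hearts and pig 30 well above the other hearts of NRP+HOPE 24h. After median-of-ratios scaling GSDMD was 64.3 to 88.3 TPM in NRP+HOPE 24h and 90.5 to 111 TPM in No NRP+HOPE 2h, without overlap, with a log2 fold change of -0.37 and an unadjusted limma p of 0.181. Its log2 fold change was -0.58 (95% interval -1.37 to 0.21) for NRP+HOPE 24h and -0.16 (-0.95 to 0.63) for No NRP+HOPE 2h, each against NRP+SCS 2h. The first of these was -0.26 without pig 24 and -0.93 without pig 30, where its unadjusted p was 0.0204. CASP8, the protease that starts apoptosis and restrains necroptosis, also had overlapping groups. It was at 6.80, 8.70 and 5.19 TPM in NRP+SCS 2h, 4.18, 4.59 and 9.07 TPM in NRP+HOPE 24h, and 5.02, 6.34 and 7.04 TPM in No NRP+HOPE 2h. The log2 fold changes of CASP8 against NRP+SCS 2h were -0.23 (95% interval -0.96 to 0.50) and -0.13 (-0.86 to 0.59). The first of these ran from -0.53 without pig 30, where the groups did not overlap (unadjusted limma p 0.102), to -0.05 without pig 27.

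RIPK1, the kinase that death receptors recruit first, was lower in both NRP groups than in most hearts without NRP. Its levels were 47.6, 40.7 and 52.1 TPM in NRP+SCS 2h, 40.1, 41.4 and 55.2 TPM in NRP+HOPE 24h, and 53.0, 78.0 and 76.4 TPM in No NRP+HOPE 2h. Only pig 30 of the NRP hearts exceeded the lowest heart without NRP, pig 31. The log2 fold change of No NRP+HOPE 2h against both NRP groups was 0.56 (SE 0.24), with an unadjusted limma p of 0.0329, an adjusted p of 0.692 and an exact permutation p of 0.0476. Leaving out pig 24, 25, 28, 33 or 34 in turn took the unadjusted p past 0.05, to at most 0.133.

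The overlap of RIPK1 depended on the scaling between hearts. The factor that a median-of-ratios scaling gives each heart ran from 0.728 in pig 27 to 1.33 in pig 30, and pig 31 had 0.771. After division by this factor RIPK1 was 65.3 to 73.2 TPM in No NRP+HOPE 2h and 38.7 to 55.2 TPM in the 6 NRP hearts, without overlap. The log2 fold change against both NRP groups was then 0.59 (SE 0.15), with an unadjusted limma p of 0.00237 and an adjusted p of 0.169. Adjusted p over all alternatives of this value ran from 0.0958 to 0.992. The same scaling moved the median of all genes in Group 1 against Group 2 from -0.12 to 0.00.

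RIPK3, the kinase that RIPK1 engages to start necroptosis, had its lowest mean in NRP+HOPE 24h. It read 9.31, 9.65 and 16.3 TPM there, against 31.8, 19.2 and 19.9 TPM in NRP+SCS 2h and 12.3, 30.1 and 24.7 TPM in No NRP+HOPE 2h. Every NRP+HOPE 24h heart was below every NRP+SCS 2h heart, while pig 31 without NRP fell among the NRP+HOPE 24h values. The log2 fold change between Group 1 and Group 2 was -0.95 (SE 0.37, 95% interval -1.75 to -0.16), with an unadjusted limma p of 0.0223, an adjusted p of 0.933 and an exact permutation p of 0.1, the smallest possible for 3 against 3. It stayed negative and without overlap in all 21 alternatives, with an unadjusted p above 0.05 without pig 24 (0.105), pig 27 (0.0688) or pig 28 (0.0709). After median-of-ratios scaling RIPK3 was 10.7 to 12.8 TPM in NRP+HOPE 24h, below both NRP+SCS 2h (18.2 to 29.8 TPM) and No NRP+HOPE 2h (15.9 to 28.2 TPM).

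MLKL, which RIPK3 phosphorylates and which then breaches the plasma membrane, had its highest mean without NRP. It read 11.2, 16.5 and 26.4 TPM in No NRP+HOPE 2h, while NRP+SCS 2h had 9.88, 2.82 and 10.9 TPM and NRP+HOPE 24h had 8.61, 15.3 and 10.9 TPM. Of the hearts without NRP, pig 31 exceeded the highest NRP+SCS 2h heart only narrowly, and pig 25 was far below the other 8 hearts. The log2 fold change between Group 3 and Group 2 was 1.19 (SE 0.44, 95% interval 0.23 to 2.14), with an unadjusted limma p of 0.0185, an adjusted p of 0.582 and an exact permutation p of 0.1. Without pig 25 it was 0.66 (unadjusted p 0.130), and without pig 34 it was 0.89 (unadjusted p 0.0812), with no overlap in either case. NRP+HOPE 24h overlapped both other groups.

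Within each heart, 4 pairs of members were also set against each other as ratios. Ratios of TPM within a heart are free of the scaling between hearts, and these pairs were chosen after the values were seen, so they are a description. The ratios reuse the levels given above, and how many other gene pairs separate the groups was not counted. RIPK1 stood at 1.5 to 2.62 times RIPK3 in NRP+SCS 2h, 3.38 to 4.31 times in NRP+HOPE 24h and 2.59 to 4.31 times in No NRP+HOPE 2h. MLKL was 0.147 to 0.548 of RIPK3 in NRP+SCS 2h, 0.672 to 1.59 in NRP+HOPE 24h and 0.549 to 1.07 in No NRP+HOPE 2h. The NRP+SCS 2h hearts were thus below NRP+HOPE 24h, while pig 29 of NRP+SCS 2h (0.548) and pig 33 of No NRP+HOPE 2h (0.549) were practically level. CASP8 was 0.448 to 0.557 of RIPK3 in NRP+HOPE 24h, above the 0.211 to 0.408 of No NRP+HOPE 2h, while the NRP+SCS 2h hearts spanned 0.214 to 0.454. CASP1 was 0.00398 to 0.00468 of GSDMD in NRP+HOPE 24h, 0.00998 to 0.0171 in NRP+SCS 2h and 0.0272 to 0.101 in No NRP+HOPE 2h, the same order as the CASP1 level.

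**Figure D3:**
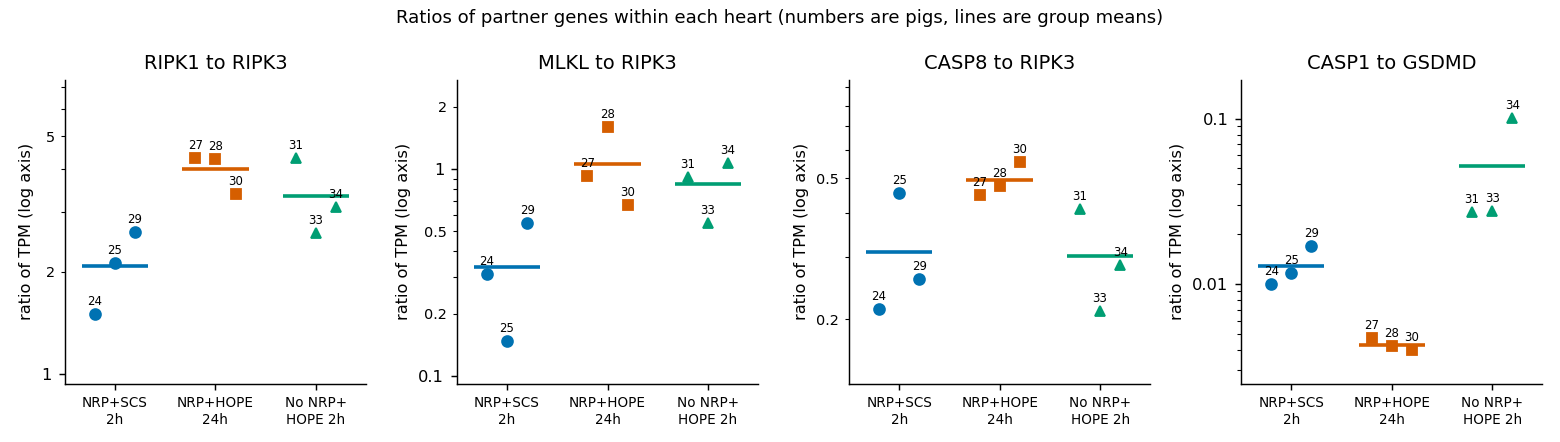
Ratio of TPM of 4 pairs of genes within each of the 9 hearts (log axes, points labelled by pig, lines for group means). The 3 groups are separate for CASP1 to GSDMD, and the NRP+SCS 2h hearts lie below NRP+HOPE 24h for RIPK1 to RIPK3 and for MLKL to RIPK3.

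CASP1 and MLKL are among genes that interferon raises, and the interferon-stimulated level differed between hearts. Over 16 listed interferon-stimulated genes, with IRF7 at 0 in every heart, the mean log2(TPM + 1) was 3.32, 4.09 and 3.60 in NRP+SCS 2h, 3.11, 3.96 and 3.89 in NRP+HOPE 24h, and 3.18, 4.40 and 6.33 in No NRP+HOPE 2h. Pig 34 stood far above the rest, with a summed level of 2564 TPM, and it also had the highest CASP1 and MLKL. Across the 9 hearts CASP1 correlated with this mean at Pearson r = 0.78 and MLKL at r = 0.53, and over the 8 hearts without pig 34 at r = 0.20 and r = 0.03, given as a description. RIPK1 stood at r = 0.67 over 9 hearts and 0.44 without pig 34, RIPK3 at 0.40 and 0.37, CASP8 at 0.38 and 0.50, GSDMD at 0.25 and 0.22, and NLRP3 at -0.03 and 0.35. In the plot against the interferon-stimulated level, pig 31 had the lowest level of its group and the second lowest of all hearts, and its CASP1 was above all 6 NRP hearts. Of 14 tested genes of the list, 14 had a higher value in No NRP+HOPE 2h than in NRP+SCS 2h, 3 with an unadjusted p under 0.05 and 0 called, beside 42.2% of all tested genes with a higher value and 7.22% with an unadjusted p under 0.05. For 0 of the 14 were the hearts of these groups without overlap, beside 14.7% of all tested genes. By the list mean, pig 31 lay below every NRP+SCS 2h heart, so that the higher group value came from pigs 33 and 34, mostly pig 34. The part of interferon in the CASP1 and MLKL values was not tested.

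**Figure D4:**
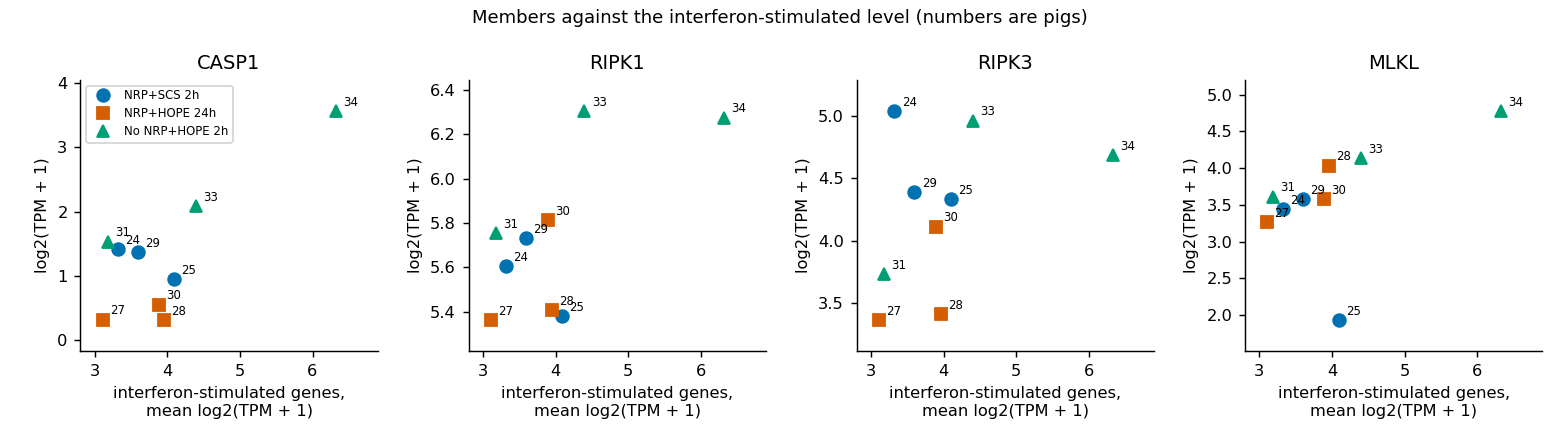
Log2(TPM + 1) of CASP1, RIPK1, RIPK3 and MLKL (vertical axes) against the mean log2(TPM + 1) of 16 interferon-stimulated genes (horizontal axes), 1 point per heart labelled by pig, with colour and shape for the group. Pig 34 lies apart at 6.33, and among the other 8 hearts the correlation of CASP1 with that mean is 0.20.

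Of the other genes of these pathways, none was called in any of the 4 comparisons. Among 24 other inflammasome sensors and triggers 10 were listed and 4 tested, and 0 of the 4 had an unadjusted p under 0.05 in any comparison. They were NEK7 (the NLRP3 partner kinase), PSTPIP1 (a pyrin-binding adaptor), CGAS and TMEM173 (the cytosolic DNA sensor and its partner STING). TMEM173 was at 8.35, 22.2 and 27.1 TPM in No NRP+HOPE 2h against 11.0 to 13.2 TPM in NRP+SCS 2h. CGAS was at 4.83 TPM in pig 34 and at 0.208 to 1.04 TPM in the other 8 hearts.

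Among 17 pyroptosis executors and products, 10 were listed and 6 tested, and IL1A alone had an unadjusted p under 0.05, in every comparison but that of Group 3 with Group 2. IL1A, an alarmin cytokine released by dying cells, stood at 4.65, 13.0 and 9.35 TPM in NRP+HOPE 24h (pigs 27, 28 and 30), at 1.44, 3.22 and 1.97 TPM in NRP+SCS 2h and at 1.29, 4.63 and 1.06 TPM in No NRP+HOPE 2h. It was above both other groups in every NRP+HOPE 24h heart, narrowly so over pig 33. The log2 fold change was 1.58 (SE 0.45, adjusted p 0.479 by limma) against NRP+SCS 2h and 1.65 (SE 0.45, adjusted p 0.375) against No NRP+HOPE 2h. IL1A and CASP1 thus had opposite signs in both comparisons of NRP+HOPE 24h. IL18, a substrate of caspase-1, was at 1.5, 5.60 and 1.53 TPM in No NRP+HOPE 2h and at 0.304, 0.998 and 1.5 TPM in NRP+SCS 2h, with a log2 fold change of 0.90 (SE 0.45, adjusted p 0.725). Pigs 31 and 34 were practically level with pig 29 of NRP+SCS 2h, so that pig 33 carried most of this difference. HMGB1 (a nuclear protein that dying cells spill) and CHMP4B (a part of the ESCRT machinery that mends pores) had log2 fold changes from -0.28 to 0.22 in the comparisons for which the rule named them.

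Among 36 genes of death receptor signalling and necroptosis control, 29 were listed and 26 tested. TNFAIP3, the ubiquitin editor A20 that restrains NF-κB and RIPK3, was at 28.7, 57.0 and 42.9 TPM in NRP+HOPE 24h, at 15.6, 9.58 and 9.38 TPM in NRP+SCS 2h and at 4.94, 13.9 and 11.3 TPM in No NRP+HOPE 2h. All NRP+HOPE 24h hearts were above all other hearts, with a log2 fold change of 1.79 (SE 0.39, adjusted p 0.199) against NRP+SCS 2h and 2.04 (SE 0.39, adjusted p 0.140) against No NRP+HOPE 2h. FAS, a death receptor, followed the same direction against NRP+SCS 2h, at 8.58, 10.7 and 15.7 TPM against 6.16, 4.63 and 6.46 TPM, with a log2 fold change of 0.88 (SE 0.32, adjusted p 0.871). Unlike TNFAIP3, FAS was also above every NRP+SCS 2h heart in No NRP+HOPE 2h, at 6.49, 9.10 and 10.8 TPM, narrowly so in pig 31. The log2 fold change there was 0.52 (SE 0.32, adjusted limma p 0.804). NRP+HOPE 24h had both the lowest mean RIPK3 and the highest TNFAIP3, and a link between these transcripts was not tested.

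ZBP1, a nucleic acid sensor that can engage RIPK3 without a death receptor, was at 9.92, 25.0 and 61.1 TPM in No NRP+HOPE 2h, against 4.66, 10.9 and 2.10 TPM in NRP+SCS 2h and 5.63, 13.0 and 21.3 TPM in NRP+HOPE 24h. Pig 31 fell below pig 25, so the groups of the NRP comparison overlapped, and the log2 fold change was 2.13 (SE 0.63, adjusted p 0.416). TNFSF10, the death ligand TRAIL, was at 11.5, 31.8 and 167 TPM in No NRP+HOPE 2h against 8.67, 11.6 and 17.3 TPM in NRP+SCS 2h, with a log2 fold change of 1.65 (SE 0.70, adjusted p 0.657). Pig 34 carried most of the No NRP+HOPE 2h mean of TNFSF10, 70.2 ± 84.7 TPM (SD). Interferon raises ZBP1 and TNFSF10, and pig 34 was the highest heart for both. The part of interferon in their values was not tested. USP21, a deubiquitinase of RIPK1, had a log2 fold change of 0.62 (SE 0.37, adjusted p 0.795) in the same comparison. In the 26 genes 2 had a higher value and 0 a lower one at an unadjusted p under 0.05 in each comparison with NRP+SCS 2h, which is 7.69% of them, beside 4.97% and 7.22% of all tested genes. Between Group 1 and Group 3 the count was 1 higher and 1 lower (7.69%, beside 6.01% of all tested genes), and against both NRP groups 2 higher and 1 lower (11.5%, beside 6.92%).

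**Figure D5:**
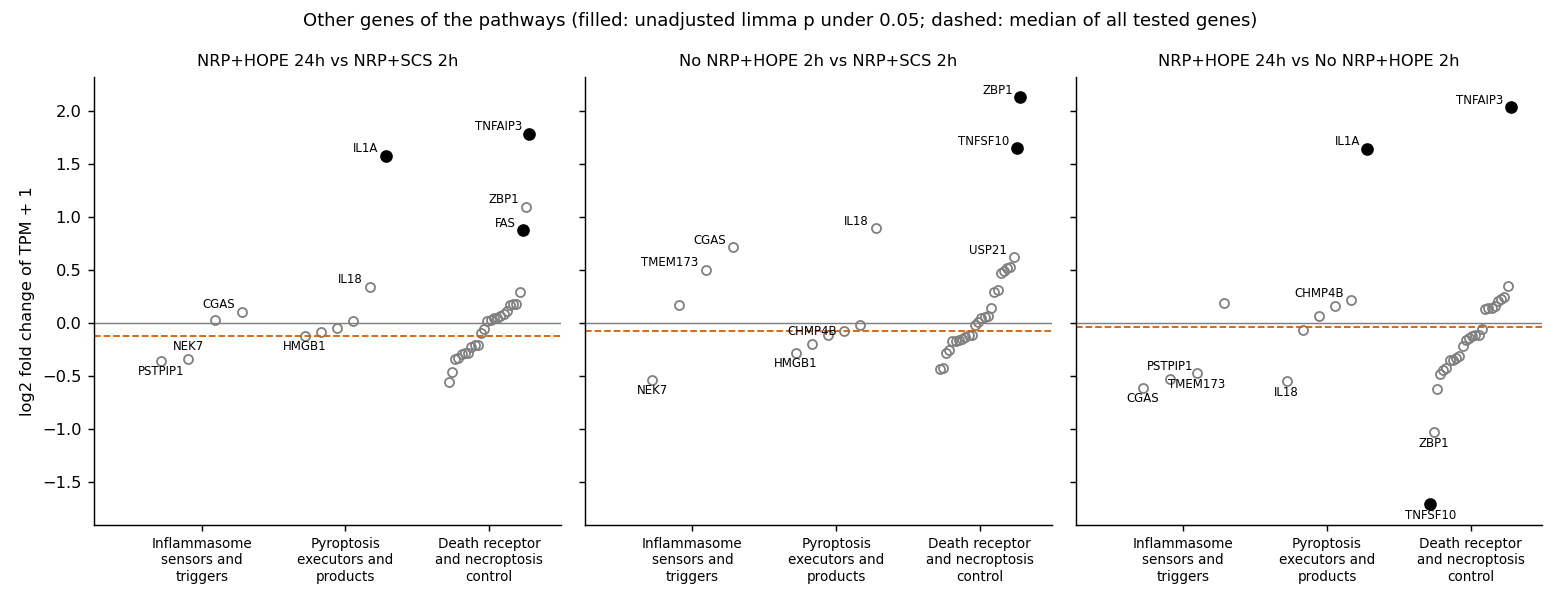
Log2 fold changes of TPM + 1 (vertical axis) of the other tested genes of 3 lists in 3 comparisons, each point a gene, filled where the unadjusted limma p is under 0.05, with a dashed line at the median of all tested genes. IL1A, TNFAIP3 and FAS are the filled points of Group 1 against Group 2, and ZBP1 and TNFSF10 those of Group 3 against Group 2.

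Among the members themselves, GSDMD and RIPK3 had the most similar pattern over the 9 hearts (Pearson r = 0.90, Spearman rho = 0.90), followed by CASP1 and RIPK1 (r = 0.83, rho = 0.73). These correlations are descriptions, since the hearts share the scaling of TPM, and the level of GSDMD correlated with the median-of-ratios factor at r = 0.75 and that of RIPK3 at r = 0.66. CASP8 followed that factor most closely (r = 0.82) and MLKL least (r = 0.15). Of all genes with a symbol, the 3 most like CASP1 were BAHCC1, B3GNT3 and ZNF2 (r = 0.96 each), and those most like MLKL were CBR3, KCNAB1 and PDE1C (r = 0.92, 0.90 and 0.89). The genes nearest to RIPK3 were C19orf24, CIITA and PIGT, those nearest to RIPK1 were WRAP73, GDE1 and BBX, and those nearest to GSDMD were TECPR1, RXRB and COLGALT1, with r from 0.95 to 0.97. NLRP3 was most like TNS3, NAA35 and MIOS (r = 0.94 each), and CASP8 was most like PHB, PNPLA2 and SYNGR1 (r = 0.95 to 0.96).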

How the data were processed

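Apex biopsies of 9 pig hearts, flash-frozen after warm perfusion, were sequenced in paired ends after oligo(dT) enrichment and addition of ERCC spike-in. Per the labels, the authors' processing used bcl2fastq 2.17, Trimmomatic 0.36, STAR 2.5.2b, featureCounts (Subread 1.5.2) and DESeq2. The genome build is not given in the sources used here, so no coordinates are printed. The authors deposited TPM values, which sum to 1000000 per heart, and 9 further value columns that match no labelled heart were not used. Gene lengths behind TPM are not given, and strand use in counting is not given. TPM keep no depth, so no counting interval or detection limit can be stated, and precision rests on the spread between hearts.

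A count test cannot be used on TPM. Values were fitted as log2(TPM + 1) with limma 3.58.1 in R 4.3.3, with the 3 group means fitted jointly to the 9 hearts and trended variance moderation by eBayes. Tests were two-sided and adjusted by Benjamini-Hochberg over the 11782 genes within each comparison. Genes needed at least 1 TPM in at least 3 hearts. Fold changes on this scale understate those of low genes. Single genes were also compared by exact permutation over hearts, two-sided. The script was tested on simulated data. Symbols came from the table or, for 754 further identifiers, from a gene name table.

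Every listed member was named, with the 3 largest absolute log2 fold changes of each pathway list per comparison and the 3 genes with the highest Pearson r to each member. The members and lists were chosen with earlier results of these data known. The count of genes with 3 separate groups and the ratios were added after the values were seen. The planned promoter and protein descriptions were not made, since no sequence tables were used here. The alternatives covered the pseudocount, filter, scaling, mitochondrial genes, variance model, weights and single hearts. Pigs are not shared between groups, and their numbers pair no hearts.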

Additional observations from a re-analysis of the deposited data

How the results depend on the processing

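No member was called under any of the 21 alternatives, 2 of which (median-of-ratios scaling with a pseudocount of 0.1, and leaving out pigs 30 and 34 together) were chosen after seeing the data. Depth is unknown and 3 hearts per group limit what can pass. In the array-weight fit the weights stopped before full convergence. The log2 fold changes kept their direction in 545 of 573 values. For Group 1 against Group 2, members at an unadjusted p under 0.05 numbered 1, and 2 with a pseudocount of 0.1 (with or without median-of-ratios scaling), quantile normalization, mitochondrial genes left out or only the hearts compared in the fit, 4 with array weights and 3 without pigs 30 and 34. The share of all tested genes rose as well, from 4.97% to 15.4% with array weights and 12.8% without pigs 30 and 34. For Group 3 against Group 2 they numbered 2, and 3 without the filter, with median-of-ratios scaling under either pseudocount, quantile normalization, mitochondrial genes left out, only the hearts compared or array weights (7.22% of all tested genes, and 6.28% to 15.8% in these settings), 1 at a mean TPM of at least 5 and 0 without pigs 30 and 34. For Group 1 against Group 3 they numbered 2, and 1 at a mean TPM of at least 5 or with only the hearts compared, 3 with a pseudocount of 0.1, median-of-ratios scaling under either pseudocount, quantile normalization, mitochondrial genes left out or pigs 30 and 34 left out, and 4 with array weights (6.01% of all tested genes, and 15.9% with array weights). Leaving out 1 heart gave 0 to 2, 0 to 3 (0 without pig 25 and 0 without pig 34) and 1 to 4 in these comparisons, and 1 to 4 against both NRP groups, where the count was 3 (1 without pig 25, 33 or 34). For the first comparison the count was 0 without pig 24, 27 or 28 and 2 without pig 30 or 34, and for the third it was 4 without pig 30 and 1 without pig 25, 27, 28, 29, 33 or 34. The share of all tested genes over these fits ran from 3.21% to 10.7%, 4.12% to 9.43%, 4.12% to 9.49% and 5.12% to 9.64% in the 4 comparisons.

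Members without overlap numbered 2 in Group 1 against Group 2, and 1 at a mean TPM of at least 5, which drops CASP1, and 4 without pigs 30 and 34, where the share of all tested genes rose from 9.82% to 37.3% (2 to 4 without 1 heart, 4 without pig 30 with the same 37.3%). In Group 1 against Group 3 they numbered 1, and 0 at a mean TPM of at least 5, 4 with median-of-ratios scaling under either pseudocount or quantile normalization, 3 with mitochondrial genes left out and 5 without pigs 30 and 34, while 7.48% of all tested genes became 16.3%, 15.9%, 12.5% and 31.6% with the first scaling, quantile normalization, mitochondrial genes left out and those pigs left out (1 to 5 without 1 heart, 5 without pig 30, 4 without pig 31 and 2 without pig 28 or 33, with 24.8%, 19.0%, 10.7% and 14.5% of all tested genes). Against both NRP groups they numbered 1, and 0 at a mean TPM of at least 5, 2 with median-of-ratios scaling under either pseudocount, quantile normalization, mitochondrial genes left out or pigs 30 and 34 left out, with 2.35% of all tested genes becoming 4.03% to 7.81% (1 to 3 without 1 heart, 3 without pig 31 and 2 without pig 28, 30 or 33, with 8.66%, 2.94%, 4.07% and 7.43% of all tested genes). The cause was not tested.

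Directions that turned were of small values. RIPK1 in Group 1 against Group 2 was 0.0997 with median-of-ratios scaling, 0.102 with a pseudocount of 0.1 besides, 0.0404 with quantile normalization and -0.187 to 0.0373 without 1 heart. NLRP3 in that comparison was -0.111 without pigs 30 and 34 and -0.111 to 0.312 without 1 heart. Against NRP+SCS 2h in No NRP+HOPE 2h, RIPK3 was 0.0117 with quantile normalization and 0.201 with array weights (-0.377 to 0.236 without 1 heart), GSDMD was 0.0764 with array weights (-0.371 to 0.156 without 1 heart), and CASP8 was -0.297 to 0.0276 without 1 heart. CASP8 was -0.397 to 0.0834 without 1 heart in Group 1 against Group 3. Against both NRP groups CASP8 was 0.00817 with median-of-ratios scaling, 0.0121 with a pseudocount of 0.1 besides, 0.00422 with quantile normalization, 0.0739 with array weights, 0.0405 without pigs 30 and 34 and -0.110 to 0.132 without 1 heart, and GSDMD was -0.0194 to 0.353 without 1 heart.

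Median-of-ratios scaling also changed the balance of all genes at an unadjusted p under 0.05. Those with a higher value numbered 215 of 585 before it and 548 of 1005 after it in Group 1 against Group 2, and 303 of 851 and 685 of 1458 in Group 3 against Group 2.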
